A study of Danio rerio with 3 samples.

Results

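The collagen genes of zebrafish embryos were followed across 3 RNA-seq libraries: HNE Z-REX, HDE Z-REX and non-treated. Genes were taken by symbol: any gene whose name began with col, a type number, the letter a and a chain number. Of 31950 genes in the tables, 60 matched. Of these, 2 were not collagens: col4a3bpa and col4a3bpb bear the older name of the ceramide transfer protein, a lipid carrier, and they were set aside. The remaining 58 collagen genes were sorted by type into 15 fibrillar, 9 basement membrane and 34 other genes. Ratios were computed where a gene averaged 10 or more counts per library, as 51 of the 58 did: 15 of 15 fibrillar, 9 of 9 basement membrane and 27 of 34 other genes.

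Z-REX is a method that releases a reactive lipid-derived aldehyde beside a chosen protein in a living fish. Embryos were injected as zygotes or early cleavage stages with mRNA for Halo-TEV-Keap1, a fusion of the sensor protein Keap1 to a tag that binds a photocaged precursor. The HNE Z-REX library came from injected embryos given the precursor of 4-hydroxynonenal (HNE) at 1 μM for 30 h in the dark, then 3 min of 365 nm light, and harvested 1.5 h later. The HDE Z-REX library came from injected embryos in which 4-hydroxydodecenal (HDE), an aldehyde with a longer carbon chain, was released by the same procedure; its precursor dose is not given separately. The non-treated library came from embryos that expressed the same fusion, so Halo-TEV-Keap1 was common to all groups. The study's data description gives the line as Tg(lyz:TagRFP), a red neutrophil reporter, for all of them, while the labels name no line. The source names number the Keap protein differently in each library, while the protocol names only Keap1. The fusion came from injected mRNA, so it was not driven by a promoter of any one tissue, and the number of embryos per library is not given. Each condition had 1 library, so no replicate error exists, and every ratio compares libraries and not conditions. Precursor, light, aldehyde and library preparation cannot be told apart.

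Collagens are secreted proteins whose chains wind around each other into a rigid helix. Fibrillar collagens (types I, II, V, XI, XXVII) assemble into the fibrils of skin, bone, notochord sheath and cartilage, basement membrane collagens (types IV, XV, XVIII) form or bind the sheets beneath epithelia and around vessels, and the other types decorate fibrils, anchor them or span the cell membrane. Before secretion, collagen chains are hydroxylated, folded with the help of chaperones and later trimmed and crosslinked by enzymes outside the cell.

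Depth was 17704410 counts in the HNE Z-REX library, 15084294 in the HDE Z-REX library and 17996111 in the non-treated library. Normalized counts are counts scaled by library total and by edgeR's TMM factor, which aligns the bulk of genes. Each ratio of normalized counts carries an exact two-sided 95% Clopper-Pearson interval, which covers counting error only; for abundant genes that interval is narrow, and it holds nothing of the variation between clutches of embryos. Reads were counted without molecular identifiers, so they are not independent molecules. FPKM divides a gene's fragments by transcript length and by a measure of sequencing depth. It was used to compare levels between genes, since it is a level per length. Its scaling followed TMM: over 51 collagen genes FPKM ratios had a median of 0.998 times the TMM count ratios for HNE over non-treated. The medians were 1 for HDE over non-treated and 0.995 for HNE over HDE. FPKM is therefore no check by library total alone. The RNA came from whole embryos, where fewer cells of a type and less RNA per cell cannot be told apart. The marker lists showed mixed tissue: all 8 epidermal markers had counts in each library (13936, 13717 and 13381 summed FPKM in HNE Z-REX, HDE Z-REX and non-treated), as did all 4 skeletal muscle markers (15534, 14073 and 16892 summed FPKM) and all 3 endothelial markers (29.3, 29.7 and 30.1). Of 7 notochord symbols 4 were in the tables, with summed FPKM of 44.3, 47.4 and 43.3. Of 6 cartilage symbols 5 were in the tables (127.9, 126.5 and 112.2 summed FPKM), and matn1, which encodes a matrix protein of mature cartilage, had 2, 1 and 0 counts.

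Collagen transcripts formed 1.84% of all counts in the HNE Z-REX library (95% Clopper-Pearson interval 1.83% to 1.84%), 1.91% in the HDE Z-REX library (1.90% to 1.92%) and 1.65% in the non-treated library (1.65% to 1.66%). Summed FPKM over the 58 genes was 3613, 3599 and 3352 in the same order. Fibrillar genes held 75.2%, 75.6% and 75.1% of the collagen counts, so the division among classes differed little between libraries while the total was higher in both Z-REX libraries. The ratio of summed normalized counts was 1.10 (95% counting interval 1.10 to 1.11) for HNE Z-REX over non-treated and 1.09 (1.09 to 1.10) for HDE Z-REX over non-treated. Between the Z-REX libraries the ratio of HNE over HDE was 1.01, and 0.961 (0.956 to 0.966) when counts were scaled by library total alone, so that order depended on the scaling.

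**Figure D1:**
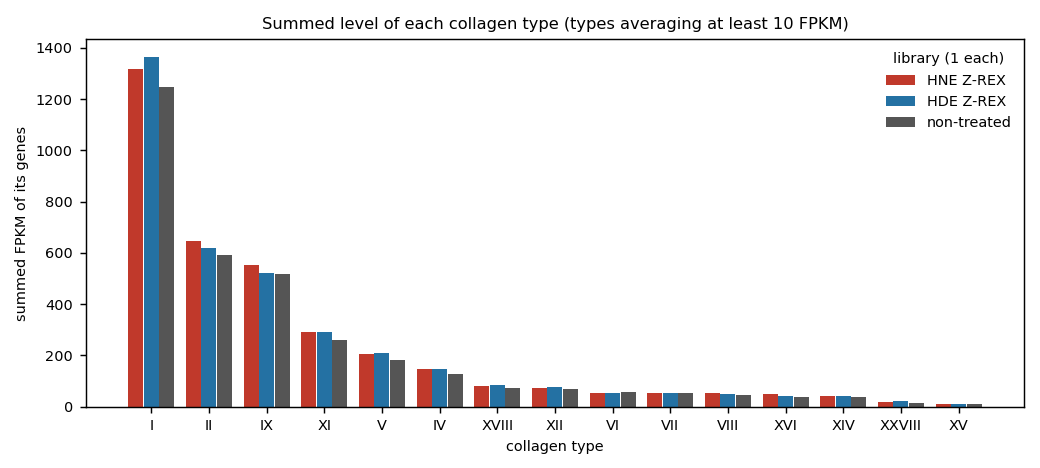
Summed FPKM of the genes of each collagen type, for types averaging at least 10 FPKM, with 1 bar per library (HNE Z-REX, HDE Z-REX, non-treated). Type I leads with 1317, 1365 and 1249 FPKM, followed by types II and IX, and type VI is a type whose bar is tallest in the non-treated library (51.0, 53.3 and 57.5 FPKM). By normalized counts the type VI sum did not differ beyond counting error: 0.997 (0.958 to 1.04) for HNE and 0.982 (0.943 to 1.02) for HDE over non-treated.

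A steep gradient separated the genes. By mean FPKM over the libraries 9 of the 58 genes reached 100, 29 reached 10 and 45 reached 1. Summed by type, type I led and types II and IX followed, which include the main collagens of skin and of notochord and cartilage. The most abundant gene, col1a1a, had 609.9, 636.9 and 623.7 FPKM in HNE Z-REX, HDE Z-REX and non-treated. At the other end col10a1a and col10a1b, the network collagen of hypertrophic cartilage, had 0 counts in the HNE Z-REX library, 1 and 3 in the HDE Z-REX library, and 2 and 6 in the non-treated library. A count of 0 allows up to 3 counts by the one-sided 95% rule, and both genes were under the minimum, so no ratio is given. The other genes under the minimum were col8a1b, COL26A1, COL28A1 (4 of 4), a second col19a1 row and a second col6a3 row, with at most 11 counts in any library.

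**Figure D2:**
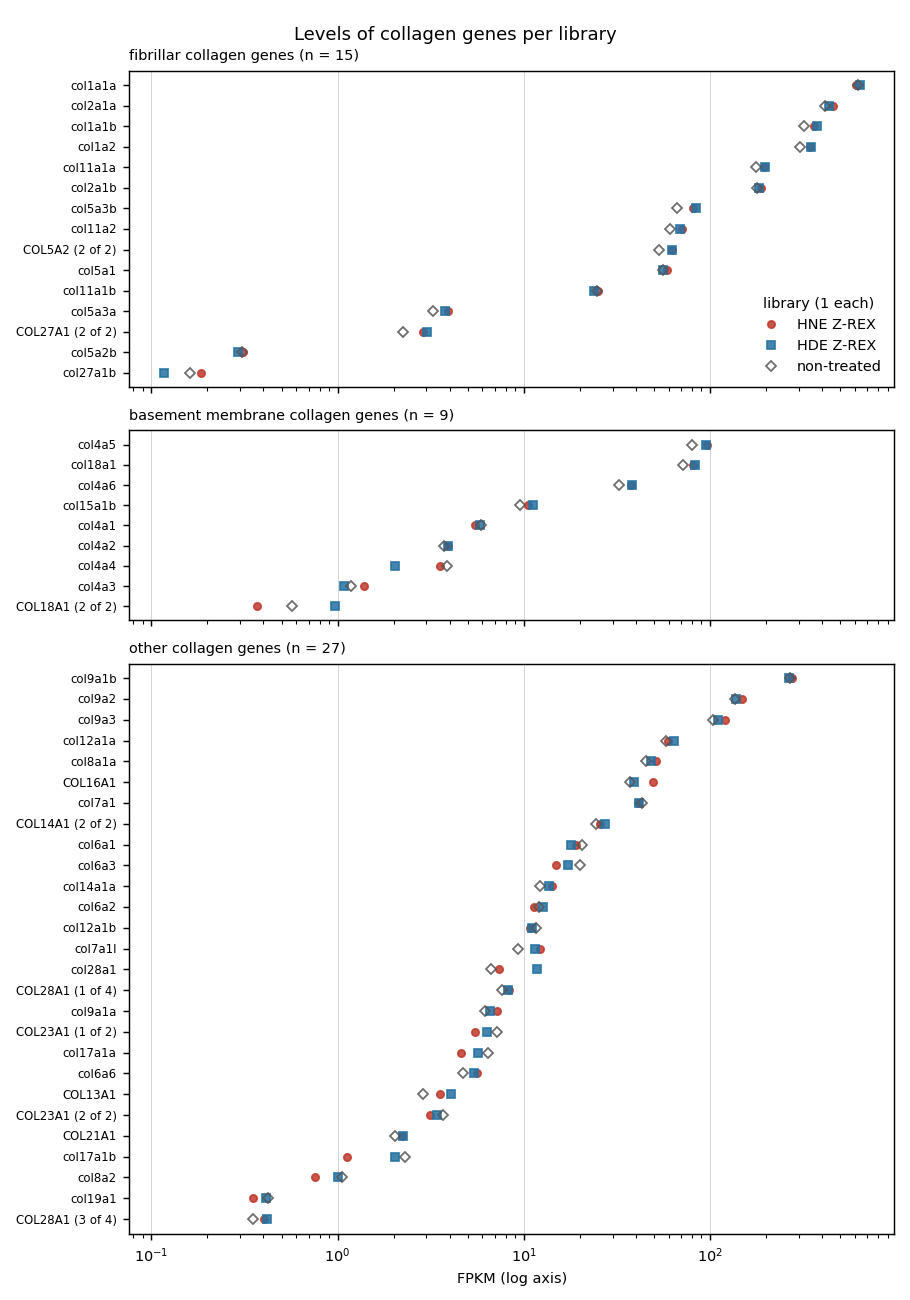
FPKM (log axis) of the 51 collagen genes that passed the minimum, ordered by mean level within the fibrillar, basement membrane and other classes, with 1 marker per library (HNE Z-REX, HDE Z-REX, non-treated). Mean levels are led by col1a1a, col2a1a and col1a1b, and the markers of a gene mostly lie close together next to the spread between genes; col4a4, col17a1b and COL18A1 (2 of 2) are among those that spread out.

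Few collagen genes differed by much. A ratio of at least 1.5-fold in either direction was reached by 2 of 51 genes in HNE Z-REX over non-treated, where 9.54% of all 18563 genes tested did so. In HDE Z-REX over non-treated 0 of 51 reached it, where 10.5% of all genes did, and in HNE Z-REX over HDE Z-REX 2 of 51 reached it, where 9.47% did. The same genes made up both counts of 2. The fibrillar gene col27a1b had 16, 9 and 10 counts in HNE Z-REX, HDE Z-REX and non-treated, and its ratios of 1.61 (0.689 to 3.98) over non-treated and 1.59 (0.660 to 4.07) over HDE Z-REX were within counting error. The other, col17a1b, is described with the transmembrane collagens. The shares over all genes include many scarcer genes and are not matched for depth. Among genes averaging 1000 counts or more, 0 of 25 collagen genes were past 1.5-fold in any comparison. Of all 2860 such genes, 16 were past it up and 18 down in HNE over non-treated. For HDE over non-treated 18 were up and 38 down, and for HNE over HDE 19 were up and 19 down.

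Small differences were frequent, and they leaned one way. In HNE Z-REX over non-treated the counting interval lay wholly above 1 for 25 of 51 collagen genes and wholly below 1 for 5, where 12.4% of all genes lay above and 12.6% below. In HDE Z-REX over non-treated 24 lay above 1 and 2 below, against 13.8% and 16.8% of all genes. In HNE Z-REX over HDE Z-REX 12 lay above and 5 below, against 15.2% and 11.4% of all genes; scaled by library total alone these were 3 above and 15 below, against 9.33% and 18.1% of all genes. That scaling gave 26 above and 3 below for HNE over non-treated, against 13.5% and 11.6% of all genes. For HDE over non-treated it gave 31 above and 2 below, against 21.5% and 10.3%. Both comparisons with non-treated embryos share that library, so a low collagen value in it would enter each of them. The median ratio of the 51 genes was 1.11 for HNE Z-REX over non-treated, 1.09 for HDE Z-REX over non-treated and 0.996 for HNE Z-REX over HDE Z-REX, beside 1.00, 0.996 and 1.01 over all genes.

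Collagens are abundant, and abundant genes have narrow intervals, so the same counts were taken over genes averaging 1000 counts or more. There 20 of 25 collagen genes lay above 1 and 2 below in HNE Z-REX over non-treated, where 24.2% of all 2860 such genes lay above and 26.9% below. In HDE Z-REX over non-treated 17 lay above and 1 below, against 19.9% and 44.5% of the abundant genes. Scaled by library total alone, 21 lay above and 0 below in HNE over non-treated, against 26.8% and 24.6%. For HDE over non-treated that scaling gave 22 above and 1 below, against 33.8% and 27.1%. In HNE Z-REX over HDE Z-REX 10 lay above and 3 below, against 41.2% and 15.1%, and by library total alone 3 above and 10 below, against 25.6% and 28.5%. The median log2 ratios of these 25 genes were 0.18, 0.13 and 0.03, beside -0.005, -0.065 and 0.06 for all abundant genes. The collagen ratios were also packed more closely, with an SD of log2 ratios of 0.11, 0.12 and 0.07 across collagen genes, beside 0.17, 0.21 and 0.18 across all abundant genes. The minimum of 1000 counts does not match depth above it, where col1a1a averaged 55455 counts. The part of remaining depth differences in these counts and SDs was not tested.

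**Figure D3:**
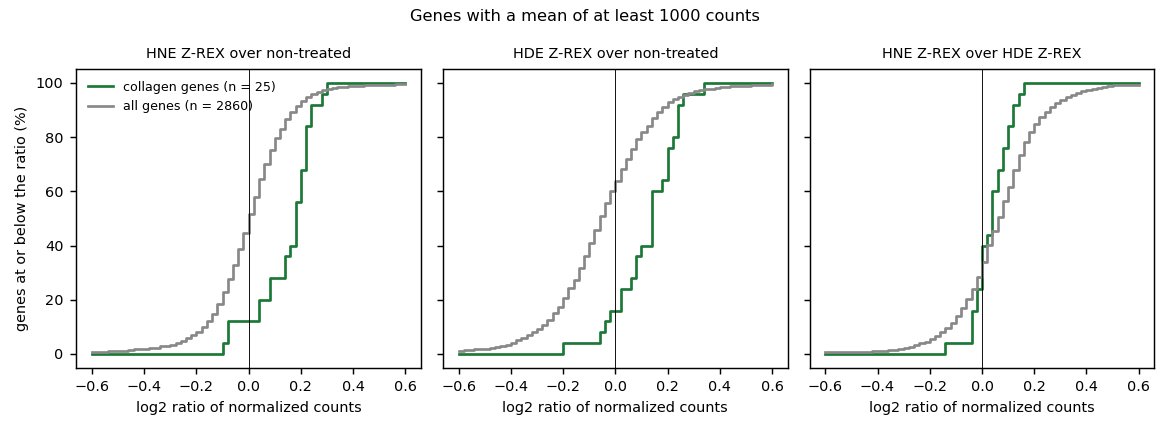
Cumulative share of genes (percent) at or below each log2 ratio of normalized counts, for the 25 collagen genes and all 2860 genes that averaged 1000 counts or more, in each of the 3 comparisons. The collagen curve lies to the right of the curve of all genes over most of its range in both comparisons with non-treated embryos, and in HNE Z-REX over HDE Z-REX it is steeper and crosses it.

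Among the fibrillar genes, type I collagen makes the fibrils of skin, tendon and bone, and zebrafish have an a and a b copy of its first chain. The gene col1a1a had 57606, 53308 and 55450 counts in HNE Z-REX, HDE Z-REX and non-treated, and ratios of 1.05 (1.04 to 1.06) for HNE over non-treated and 1.09 (1.07 to 1.10) for HDE over non-treated. On the FPKM scale its ratio for HNE over non-treated was 0.978, so its direction depended on the deposited unit. Its copy col1a1b had 35804, 33011 and 31772 counts, with ratios of 1.14 (1.12 to 1.15) and 1.17 (1.16 to 1.19). The partner chain col1a2 had 31007, 28081 and 27801 counts, with ratios of 1.13 (1.11 to 1.14) and 1.14 (1.12 to 1.16). Type I helices commonly join more of the first chain than of col1a2, and the FPKM of col1a1a plus col1a1b over that of col1a2 was 2.84 in HNE Z-REX, 2.90 in HDE Z-REX and 3.10 in non-treated. Within the copies, col1a1a stood at 1.67, 1.68 and 1.94 times the FPKM of col1a1b. Both of these chain ratios rest on the FPKM of col1a1a. For HDE over non-treated too, col1a1a had a lower ratio on FPKM, 1.02, than on counts, 1.09, so the library differences in chain balance depend on the unit. Over all type I genes the normalized counts of HNE Z-REX were 0.970 (0.963 to 0.978) of those of HDE Z-REX, and 0.927 (0.919 to 0.934) by library total alone.

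Type II collagen, the main fibrillar collagen of the notochord sheath and cartilage, gave another order of the Z-REX libraries. The copy col2a1a had 46587, 39099 and 42232 counts, with ratios of 1.11 (1.10 to 1.13) for HNE over non-treated and 1.05 (1.03 to 1.06) for HDE over non-treated. The copy col2a1b had 16131, 13894 and 14407 counts, with ratios of 1.13 (1.10 to 1.16) and 1.09 (1.07 to 1.12). Over the type, HNE over HDE was 1.06 (1.04 to 1.07), above 1 where type I was below it; by library total alone it was 1.01 (0.997 to 1.02), which held 1. The FPKM of col2a1a over that of col2a1b was 2.44, 2.38 and 2.32. The FPKM ratios of col2a1b over non-treated, 1.06 for HNE and 1.02 for HDE, were lower than its count ratios. Those of col2a1a, 1.11 and 1.05, matched its count ratios, so the library differences in this chain balance depend on the unit.

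Type XI collagen is the minor fibrillar collagen found inside type II fibrils. The main copy col11a1a had 22606, 20275 and 20833 counts, with ratios of 1.09 (1.07 to 1.12) and 1.10 (1.08 to 1.12) for HNE and HDE over non-treated. The second copy col11a1b had 3785, 3185 and 3745 counts, and its ratios of 1.02 (0.975 to 1.07) and 0.962 (0.917 to 1.01) were within counting error of 1. The chain col11a2 had 7911, 6767 and 7008 counts, with ratios of 1.14 (1.10 to 1.18) and 1.09 (1.06 to 1.13). Type V collagen plays the corresponding part in type I fibrils, where it regulates their width. Over the type the ratio was 1.13 (1.11 to 1.16) for HNE and 1.12 (1.10 to 1.15) for HDE over non-treated. The chain with the most counts, col5a1, which the naming rule did not select, had 9260, 7851 and 8865 counts and ratios of 1.05 (1.02 to 1.09) and 1.00 (0.971 to 1.03). The gene col5a3b had 7578, 6966 and 6268 counts and ratios of 1.22 (1.18 to 1.26) and 1.26 (1.21 to 1.30). A few of its reads were divided with si:ch1073-286c18.5, and the sums of both genes were 7605, 6999 and 6323 counts.

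Taken as a class, the ratio was above 1 for 15 of 15 fibrillar genes in HNE Z-REX over non-treated, where it was above 1 for 50.5% of all genes. The interval lay above 1 for 12 and below 1 for 0, against 12.4% and 12.6% of all genes. In HDE Z-REX over non-treated the ratio was above 1 for 13 of 15, against 49.2% of all genes, with 11 intervals above and 0 below, against 13.8% and 16.8%. Most fibrillar genes are abundant, and these shares are not matched for depth. Of all genes averaging 1000 counts or more, 24.2% lay above 1 and 26.9% below in HNE over non-treated. In HDE over non-treated 19.9% lay above and 44.5% below, and 33.8% and 27.1% by library total alone. The class median was 1.13 for HNE over non-treated, 1.09 for HDE over non-treated and 1.01 for HNE over HDE.

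**Figure D4:**
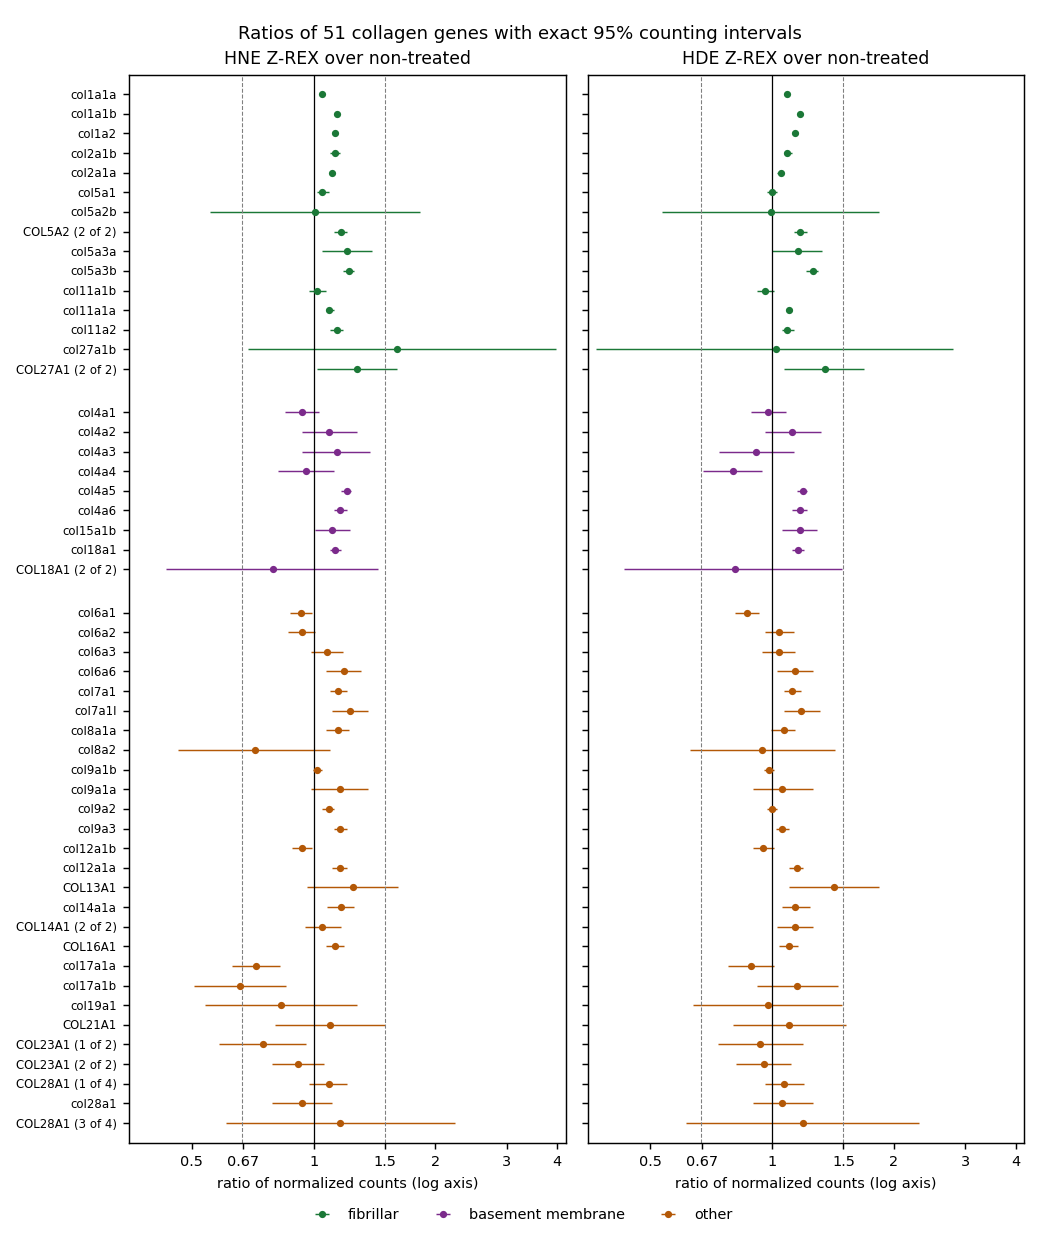
Ratio of normalized counts (log axis) for 51 collagen genes, HNE Z-REX over non-treated on the left and HDE Z-REX over non-treated on the right; bars are exact 95% counting intervals, colours are the classes, the solid line is 1 and dashed lines mark 1.5-fold. Most fibrillar points lie just right of 1 with short bars, and col17a1a and col17a1b lie left of 1 in the HNE panel.

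The basement membrane genes were led by col4a5, col18a1 and col4a6. Type IV collagen is the network of every basement membrane, and its chains are encoded in pairs of adjacent genes. The tables of gene order used here place col4a1 beside col4a2, col4a4 beside col4a3, and col4a6 beside col4a5. The gene col4a5 had 10717, 9412 and 8958 counts, with ratios of 1.21 (1.17 to 1.24) for HNE over non-treated and 1.19 (1.15 to 1.22) for HDE over non-treated. Its neighbour col4a6 had 5432, 4868 and 4707 counts, with ratios of 1.16 (1.12 to 1.21) and 1.17 (1.12 to 1.22). Both members of this pair were thus higher in each Z-REX library, by more than counting error.

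The pair found in nearly all vertebrate basement membranes was much less abundant here. The gene col4a1 had 819, 762 and 884 counts, and its ratios of 0.935 (0.849 to 1.03) and 0.975 (0.884 to 1.08) held 1. The gene col4a2 had 346, 317 and 319 counts, with ratios of 1.09 (0.937 to 1.28) and 1.12 (0.959 to 1.32); a few reads were divided with si:ch73-182o2.1. The summed FPKM of col4a5 and col4a6 was 14.2 times that of col4a1 and col4a2 in HNE Z-REX, 13.7 times in HDE Z-REX and 11.7 times in non-treated.

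The third pair, known from kidney glomerulus in mammals, was scarcer still. The gene col4a3 had 223, 160 and 198 counts, with ratios of 1.14 (0.934 to 1.38) and 0.914 (0.737 to 1.13). The gene col4a4 had 318, 237 and 336 counts, with ratios of 0.955 (0.817 to 1.12) for HNE and 0.798 (0.673 to 0.945) for HDE over non-treated. Its FPKM ratio for HDE over non-treated was lower, at 0.525, and the cause of that gap was not tested. For HNE over HDE the ratios were 1.24 (1.01 to 1.53) for col4a3 and 1.2 (1.01 to 1.42) for col4a4. These were the basement membrane genes whose interval lay above 1 in that comparison under TMM scaling. By library total alone 0 of 6 type IV intervals lay above 1 and 2 below, against 9.33% and 18.1% of all genes.

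Type XVIII collagen, whose end fragment is endostatin, carries heparan sulfate chains in basement membranes. Its gene col18a1 had 7833, 7149 and 6982 counts, with ratios of 1.13 (1.10 to 1.17) and 1.16 (1.12 to 1.2). In the class of 9 genes, 4 intervals lay above 1 and 0 below in HNE Z-REX over non-treated, against 12.4% and 12.6% of all genes. For HDE over non-treated 4 lay above and 1 below, against 13.8% and 16.8%. As for the fibrillar class, these shares are not matched for depth. The sums over the class gave ratios of 1.16 (1.14 to 1.18) in both comparisons, beside 1.10 (1.10 to 1.11) in both for the fibrillar class. For the other class they were 1.07 (1.06 to 1.09) for HNE and 1.03 (1.02 to 1.05) for HDE over non-treated.

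Of the other collagens, the most abundant were the chains of type IX, which coats type II fibrils in cartilage. The gene col9a1b had 13049, 11180 and 12885 counts, and its ratios of 1.02 (0.997 to 1.05) for HNE and 0.981 (0.957 to 1.01) for HDE over non-treated held 1. The chain col9a2 had 7987, 6553 and 7405 counts, with ratios of 1.09 (1.05 to 1.12) and 1.00 (0.968 to 1.03). The chain col9a3 had 6402, 5184 and 5555 counts, with ratios of 1.16 (1.12 to 1.21) and 1.06 (1.02 to 1.10). The minor copy col9a1a had 329, 269 and 287 counts and intervals that held 1 in both comparisons. For HDE over non-treated the type IX sum was 1.00 (0.986 to 1.02), with 1 of 4 intervals above 1, against 13.8% of all genes. By library total alone it was 1.06 (1.04 to 1.08), with 3 of 4 above, against 21.5%. For HNE over non-treated 2 of 4 lay above, against 12.4%, and 3 by library total alone, against 13.5%. The type IX sum for HDE and the counts of intervals thus depended on the scaling. The type IX sum for HNE over non-treated was above 1 under both scalings. It was 1.07 (1.05 to 1.09), and 1.08 (1.06 to 1.1) by library total alone. Over the type, HNE over HDE was 1.07 (1.05 to 1.09), near that of type II, and 1.02 (1.00 to 1.04) by library total alone. In the same comparison type XI gave 1.01 (0.997 to 1.03), and 0.967 (0.952 to 0.982) by library total alone.

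Type VI collagen forms beaded filaments around cells of muscle and connective tissue, and its sum did not differ beyond counting error: 0.997 (0.958 to 1.04) for HNE and 0.982 (0.943 to 1.02) for HDE over non-treated, the HDE value being 1.04 (0.994 to 1.08) by library total alone. Its chains differed among themselves. The gene col6a1 had 1895, 1571 and 2050 counts, with ratios of 0.933 (0.876 to 0.993) and 0.867 (0.811 to 0.926), which made it one of the 2 collagen genes whose interval lay below 1 in HDE over non-treated. By library total alone 0 of 4 type VI intervals lay below 1 for HNE over non-treated, against 11.6% of all genes. For HDE over non-treated 1 of 4 did, against 10.3%. The HNE value of col6a1 below 1 thus depended on the scaling. The gene col6a2 had 1183, 1176 and 1278 counts, with ratios of 0.934 (0.862 to 1.01) and 1.04 (0.960 to 1.13). The gene col6a6 had 863, 738 and 734 counts, and its ratios of 1.19 (1.07 to 1.31) and 1.14 (1.03 to 1.26) lay above 1. The gene col6a3 had 996, 855 and 934 counts, with ratios of 1.08 (0.983 to 1.18) and 1.04 (0.942 to 1.14). A second col6a3 row took about 2 of those reads in the HNE Z-REX and non-treated libraries. The FPKM ratio of col6a3 for HNE over non-treated was 0.745, on the other side of 1 from its counts. Skeletal muscle markers, read in the same libraries, had median log2 ratios of -0.155 for HNE and -0.252 for HDE over non-treated; their part in these values was not tested.

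Type XVII collagen was lower in the HNE Z-REX library than in either other library. It is a transmembrane collagen of hemidesmosomes, the junctions that fasten basal epidermal cells to the basement membrane. The gene col17a1b had 98 counts in HNE Z-REX, 153 in HDE Z-REX and 150 in non-treated. Its ratio was 0.659 (0.506 to 0.856) for HNE over non-treated, 1.15 (0.915 to 1.45) for HDE over non-treated and 0.572 (0.439 to 0.741) for HNE over HDE. It was the one collagen gene past 1.5-fold whose interval did not hold 1, and its low value was that of the HNE Z-REX library alone. Its FPKM ratios were 0.487, 0.891 and 0.546 in the same order. The copy col17a1a, given here because it is the other gene of the type and not by the rule for named genes, had 380, 416 and 532 counts. Its ratios were 0.721 (0.630 to 0.824), 0.884 (0.776 to 1.01) and 0.815 (0.707 to 0.939). Summed over both copies the ratio was 0.707 (0.628 to 0.796) for HNE over non-treated, 0.943 (0.843 to 1.06) for HDE over non-treated and 0.750 (0.662 to 0.848) for HNE over HDE. Type XXIII, also transmembrane, was below 1 too for HNE over non-treated, with a summed ratio of 0.866 (0.762 to 0.985). Its HDE ratio was 0.947 (0.832 to 1.08), and its HNE over HDE ratio was 0.915 (0.800 to 1.05). Type XXIII was chosen after its values were seen.

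The 8 epidermal markers went both ways in HNE over non-treated, with 4 intervals above 1, 2 below and ratios between 0.843 and 1.17. In HDE over non-treated 3 lay above and 1 below, with ratios between 0.893 and 1.18. Above 1 for HNE were cldni at 1.17, cyt1l at 1.16, krt17 at 1.15 and cyt1 at 1.05, while the intervals of krt5 and krt4 held 1. Below 1 were krt8, at 0.947 (0.928 to 0.966), and tp63, which encodes a transcription factor of basal epidermal cells. The values of tp63, the lowest of the markers for HNE, are given in full after they were seen. It had 982, 1044 and 1175 counts, with ratios of 0.843 (0.774 to 0.919) for HNE and 1.00 (0.923 to 1.09) for HDE over non-treated. The part of tp63-expressing cells in the type XVII values was not tested. Over the 5 transmembrane collagen genes, 3 intervals lay below 1 and 0 above in HNE Z-REX over non-treated, where 12.6% and 12.4% of all genes did. For HDE over non-treated 1 lay above and 0 below, against 13.8% and 16.8%. Apart from type XVII these were COL23A1 (1 of 2), with 116, 129 and 156 counts and a ratio of 0.750 (0.585 to 0.960) for HNE, and COL13A1, with 135, 137 and 109 counts and a ratio of 1.42 (1.10 to 1.84) for HDE; they were chosen after their values were seen.

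Among the anchoring fibril genes, col7a1l encodes a type VII-like chain, and type VII collagen tethers basement membranes to the tissue beneath. It had 880, 755 and 721 counts and ratios of 1.23 (1.11 to 1.36) and 1.18 (1.07 to 1.31) for HNE and HDE over non-treated. Its reads were divided with si:dkey-117n7.4, which leaves its own level uncertain, and the sums of both were 1041, 874 and 840 counts. The more abundant anchoring fibril gene, col7a1, is given to complete the pair and not by the naming rule. It had 3698, 3221 and 3240 counts and ratios of 1.15 (1.10 to 1.21) and 1.12 (1.07 to 1.18). Its FPKM ratios were 0.942 and 0.960, so its direction depended on the deposited unit. Like col7a1l, the gene col28a1 had fractional counts, near 267, 271 and 288, with no single partner found. Its count ratio for HDE over non-treated was 1.06 (0.898 to 1.26), while its FPKM ratio was 1.77. Deposited FPKM and counts gave ratios more than 1.2 times apart for 5 of 51 collagen genes in each comparison. A further 2 genes bear collagen names in the gene table but not in the files, and were not counted as members: si:dkey-117n7.2 (149, 119 and 116 counts) and si:ch1073-95o12.1 (87, 87 and 94 counts).

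Genes for proteins that make, trim, crosslink or cleave collagen were read from a list of 62 symbols. Of these, 51 matched 54 genes, and 47 of those genes averaged 10 counts or more. The 47 genes included 5 collagen-cleaving proteases. In HNE Z-REX over non-treated 3 of 47 intervals lay above 1 and 15 below, against 12.4% and 12.6% of all genes. In HDE Z-REX over non-treated 7 lay above and 12 below, against 13.8% and 16.8%, and in HNE over HDE 10 lay above and 9 below, against 15.2% and 11.4%. Some genes of the list are abundant, and these shares are not matched for depth. Of all genes averaging 1000 counts or more, 24.2% lay above 1 and 26.9% below in HNE over non-treated. For HDE over non-treated these shares were 19.9% and 44.5%, and 33.8% and 27.1% by library total alone. By library total alone HDE over non-treated turned to 10 above and 7 below, against 21.5% and 10.3% of all genes, while HNE over non-treated stayed at 3 and 15, against 13.5% and 11.6%. In HNE over HDE that scaling gave 4 above and 13 below, against 9.33% and 18.1%. The median ratios were 0.944 and 0.962, and 1.01 for HNE over HDE. Past 1.5-fold were 0 of 47 genes up and 2 down in HNE over non-treated, where 5.26% of all genes were up and 4.28% down. In HDE over non-treated 3 were up and 1 down, against 6.23% and 4.25%, and in HNE over HDE 0 were up and 4 down, against 4.07% and 5.39%. These counts are near the shares of all genes.

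The gene with the deepest counts among those past the fold was serpinh1b, which encodes the collagen chaperone Hsp47 of the endoplasmic reticulum. It had 10769 counts in HNE Z-REX, 7402 in HDE Z-REX and 16097 in non-treated, so both Z-REX libraries were below the non-treated one. Its ratio was 0.675 (0.659 to 0.692) for HNE, just short of 1.5-fold, and 0.520 (0.506 to 0.535) for HDE over non-treated. HNE over HDE was 1.30 (1.26 to 1.34). In the same group of 7 folding and export genes, 5 intervals lay below 1 in HNE and 6 in HDE over non-treated, with 0 above in either. Below 1 were 12.6% and 16.8% of all genes in these comparisons, and 26.9% and 44.5% of genes averaging 1000 counts or more. By library total alone 5 and 4 lay below, against 11.6% and 10.3% of all genes. Of genes averaging 1000 counts or more, 24.6% and 27.1% lay below under that scaling. The most abundant of the group, sparc, which encodes a collagen-binding matrix protein, had 12423, 10136 and 13101 counts and ratios of 0.957 (0.934 to 0.981) and 0.875 (0.852 to 0.898). The cyclophilin ppib, a prolyl isomerase that acts on collagen chains, had 9026, 7807 and 9475 counts and ratios of 0.961 (0.934 to 0.989) and 0.932 (0.904 to 0.960). Over all genes averaging 1000 counts or more, the median ratio was 0.997 for HNE and 0.956 for HDE over non-treated. The HDE ratio of ppib was thus near that median.

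The prolyl hydroxylase subunit p4ha1b gave opposite values in the Z-REX libraries. This enzyme hydroxylates proline residues and so stabilizes the collagen helix. It had 413 counts in HNE Z-REX, 1554 in HDE Z-REX and 718 in non-treated. Its ratio was 0.580 (0.513 to 0.656) for HNE over non-treated and 2.45 (2.24 to 2.68) for HDE over non-treated, and HNE over HDE was 0.237 (0.212 to 0.265). Of the genes that cut or trim collagen, mmp13a, a collagenase, had 150, 218 and 144 counts, with ratios of 1.05 (0.831 to 1.33) for HNE and 1.71 (1.38 to 2.13) for HDE over non-treated. The gelatinase mmp9 had 132, 205 and 146 counts, with ratios of 0.912 (0.715 to 1.16) and 1.59 (1.28 to 1.98). The procollagen peptidase ADAMTS14 had 19, 32 and 40 counts, with ratios of 0.479 (0.262 to 0.847) and 0.905 (0.550 to 1.48).

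**Figure D5:**
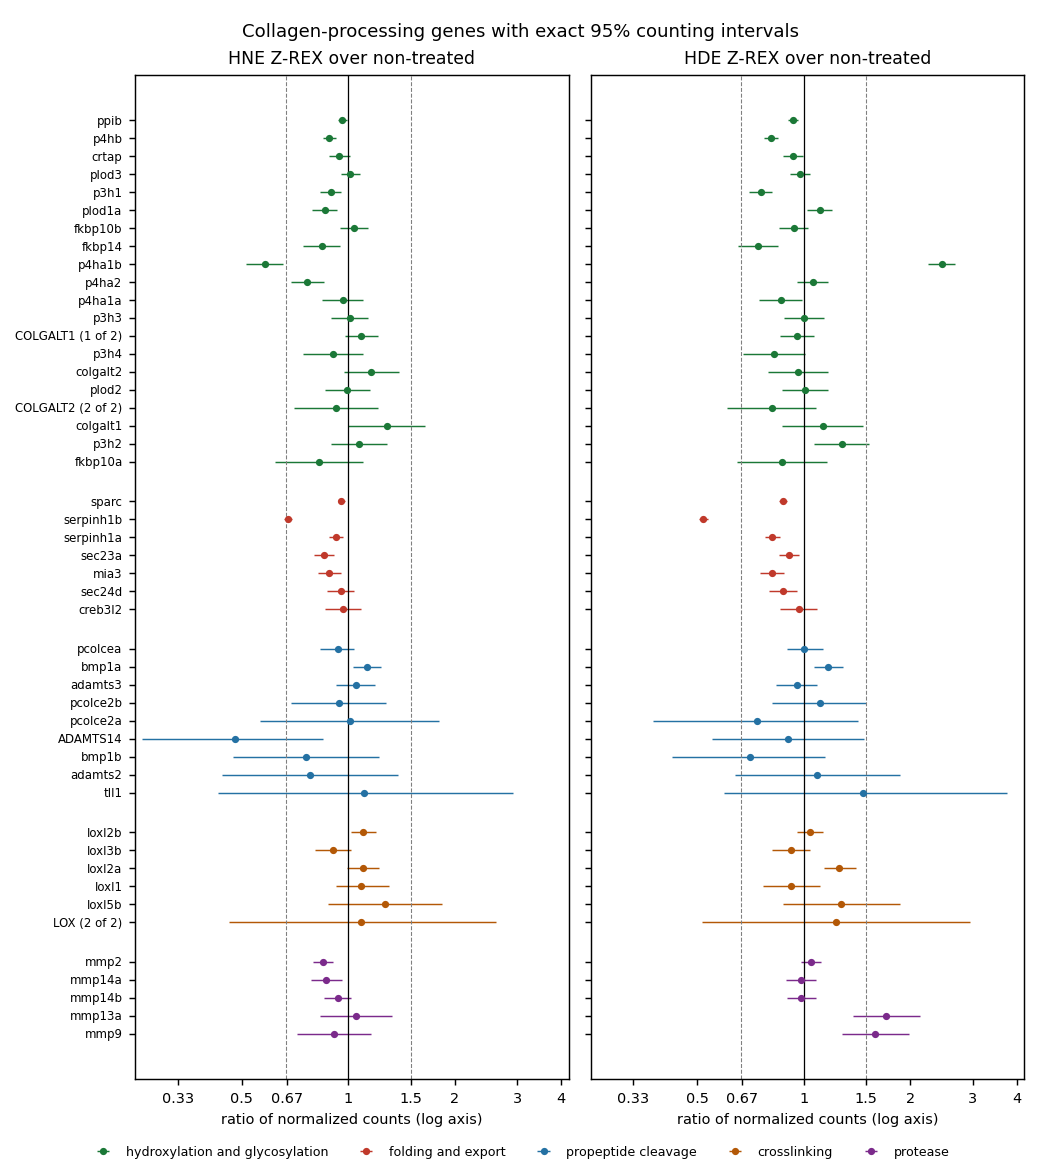
Ratio of normalized counts (log axis) for the 47 collagen-processing genes, HNE Z-REX over non-treated on the left and HDE Z-REX over non-treated on the right, grouped by role and ordered by mean FPKM within each role; bars are exact 95% counting intervals and dashed lines mark 1.5-fold. The chaperone serpinh1b lies left of 1 in both panels, and p4ha1b lies left of 1 in the HNE panel (0.580) and far right in the HDE panel (2.45).

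Of the symbols the rule caught that are not collagens, col4a3bpa had 310, 371 and 360 counts in HNE Z-REX, HDE Z-REX and non-treated, and col4a3bpb had 378, 445 and 338. For HNE over HDE their ratios were 0.746 (0.639 to 0.869) and 0.758 (0.659 to 0.871).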

How the data were processed

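Polyadenylated RNA of whole embryos was sequenced as single 81-nt reads. The authors trimmed reads with cutadapt 1.8 and mapped them with TopHat 2.1 to GRCz10 with the Ensembl annotation. The authors deposited estimated counts per gene, fractional for 913 genes and rounded here; the counting step and its use of strand are not given in the sources used here. FPKM were made by the authors with Cufflinks 2.2.

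TMM factors came from edgeR 4.0.16 (R 4.3.3) and intervals from scipy 1.17.1. With 1 library per condition no p-value was computed. Genes with a mean under 10 counts were left out of ratios. The interval code was tested on simulated data. Collagen members and all lists were chosen with earlier results of these data known.

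Genes named in the text were the 3 most abundant per class, the chains of types I, II, IV, VI, IX and XI, genes past 1.5-fold with an interval excluding 1, genes with fractional counts and, of the processing list, the 3 most abundant and those past 1.5-fold with such an interval; exceptions are marked. Of the 60 matching genes 54 had a name in the gene table. Gene order came from RefSeq on GRCz12tu, and no coordinates are given because the builds differ. Alternatives were total counts, DESeq2 1.42.0 size factors, other minimums and folds, FPKM with pseudocounts of 0.1 and 1, unrounded counts, genes without fractional counts, and type IV alone.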

Additional observations from a re-analysis of the deposited data

Results flagged for a closer look

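The prolyl hydroxylase gene p4ha1b moved in opposite directions in the libraries: its log2 ratio was -0.785 for HNE Z-REX over non-treated and 1.29 for HDE Z-REX over non-treated. The counts were 413 in HNE Z-REX, 1554 in HDE Z-REX and 718 in non-treated. With 1 library per condition the difference was not tested beyond counting error.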

How the results depend on the processing

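The count of collagen genes past 1.5-fold depended on the minimum count, the unit and the fold. For HNE Z-REX over non-treated it was 2, and became 4 with no minimum beyond 1 count in each library, 1 with a mean of at least 50 counts, 1 on FPKM with a pseudocount of 0.1, 1 with a pseudocount of 1, and 0 at 2-fold. For HDE Z-REX over non-treated it was 0, and became 4 with no minimum, and 3 and 2 on FPKM with pseudocounts of 0.1 and 1. For HNE Z-REX over HDE Z-REX it was 2, and became 4 with no minimum, 1 at 50 counts, 4 and 1 on FPKM with pseudocounts of 0.1 and 1, and 0 at 2-fold. The median log2 ratio of the basement membrane genes for HNE over HDE was -0.027, and -0.094 with total counts in place of TMM. The median over all collagen genes ranged from 0.087 to 0.165 for HNE over non-treated, from 0.076 to 0.198 for HDE over non-treated and from -0.072 to 0.017 for HNE over HDE across the alternatives. Of 102 ratios of named collagen and processing genes, 35 moved out of their counting interval with total counts, 14 and 13 on FPKM with pseudocounts of 0.1 and 1, and 0 with DESeq2 size factors. No paired analysis was possible because each condition has 1 library. Scaling by library total moved the median log2 ratio of all genes to 0.072 for HDE over non-treated, and the median of the collagen-processing list in that comparison to 1.01, from 0.962 with TMM; that last alternative was chosen after seeing the data. No values here measure the variation between clutches of embryos, so collagen ratios near 1.1 cannot be set against it, and deeper counts would not change that.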
